A study of Homo sapiens with 18 samples.

Results

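The genes described here drive or restrain the step from G1 into S phase. They are the 3 D cyclins (CCND1, CCND2 and CCND3), their kinase partners CDK4 and CDK6, the CIP/KIP inhibitors CDKN1A, CDKN1B and CDKN1C, and the INK4 inhibitors CDKN2B and CDKN2C. The 10 genes were chosen by their function and with the deposited knockout-against-WT results of these libraries already known, so their levels are given as a description, with no test. They were found by symbol and joined by Entrez ID. A mean was available for 9 of the 10 in each of the 3 deposited tables, which list 18526, 18517 and 18117 genes. The level of CDKN2B was not analysed here.

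The RNA came from MCF10A, a non-tumorigenic epithelial line of the human breast. There were 3 samples each of CBFB KO and of its own WT. There were 4 each of RUNX1 KO1, of RUNX1 KO2 and of a WT whose labels name the RUNX1 data matrix. Knockouts were made with CRISPR-Cas9, and the CBFB KO cells came from 1 clone and the RUNX1 KO cells from 2 clones, so differences between clones are part of every value. No group was treated, and all groups grew in the same medium with horse serum, insulin, EGF, hydrocortisone and cholera toxin. Each table gives 1 mean of normalized counts per gene over all libraries compared, knockout and WT together, and no value per library. The tables also carry the authors' own knockout-against-WT comparison, which was not used, so no change between a knockout and its WT is given below. The labels also name a matrix for each experiment, which was not analysed here. The values below therefore have no SD, and whether any difference exceeds the spread between replicates was not tested.

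In background, growth factor signaling raises D cyclins, which bind CDK4 or CDK6. The active complexes phosphorylate the retinoblastoma protein RB1 and so release E2F transcription factors. INK4 proteins bind CDK4 and CDK6 directly, while CIP/KIP proteins bind cyclin-CDK complexes and above all restrain CDK2. CBFB is the partner of RUNX1 that does not itself bind DNA, and the study asked which transcripts depend on the pair.

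For the CBFB, RUNX1 KO1 and RUNX1 KO2 tables, the means summed to 20214423, 18050386 and 16467400 normalized counts. Size factors of single libraries, read from genes with 1 read in 1 library, ran from 0.657 to 1.178, from 0.921 to 1.101 and from 0.562 to 1.289. CBFB, the targeted gene of the first experiment, had a mean of 897, 1058 and 931 normalized counts in the CBFB, KO1 and KO2 tables, and RUNX1 had 1606, 922 and 839. A mean over knockout and WT does not check the labels. Of 10 markers of basal mammary epithelium, 10, 10 and 9 were listed, each with a mean of at least 10, and they summed to 296457, 349188 and 318286 normalized counts. Of 6 luminal mammary markers, 5 were listed, each with a mean of at least 10, and they summed to 21508, 23223 and 29951, most of it KRT18 (14607, 13778 and 17998). The luminal sum was thus higher in the KO2 table than in the KO1 table, and its part in the results below was not tested. The 4 endothelial markers had no mean of 10 or more and summed to 5.83, 3.85 and 4.21. Of 5 leukocyte markers, CD68 was the only one with a mean of at least 10 in any table. The fibroblast list summed to 928, 870 and 713 normalized counts, most of it PDGFRA (633, 554 and 466).

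CCND1 is the D cyclin gene best known from breast cancer. Its mean was 4906 normalized counts over the 6 libraries of CBFB KO and its WT, 5119 over the 8 libraries of RUNX1 KO1 and WT, and 5278 over the 8 of RUNX1 KO2 and WT. Divided by the length of its longest transcript, this placed it at percentile 93.6 and 94.3 in the CBFB and KO1 tables, and higher still in the KO2 table, of all genes with an annotated length. Percentiles of level below are on the same scale and depend on the length chosen. CCND3 had means of 2440, 2593 and 2541, at percentile 92.7, 93.6 and 94.2. CCND2 had means of 1778, 910 and 1213, at percentile 74.4, 64.9 and 72.7. The CBFB and RUNX1 tables were normalized separately and come from separate experiments, so a level set across them is a description of those libraries.

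**Figure D1:**
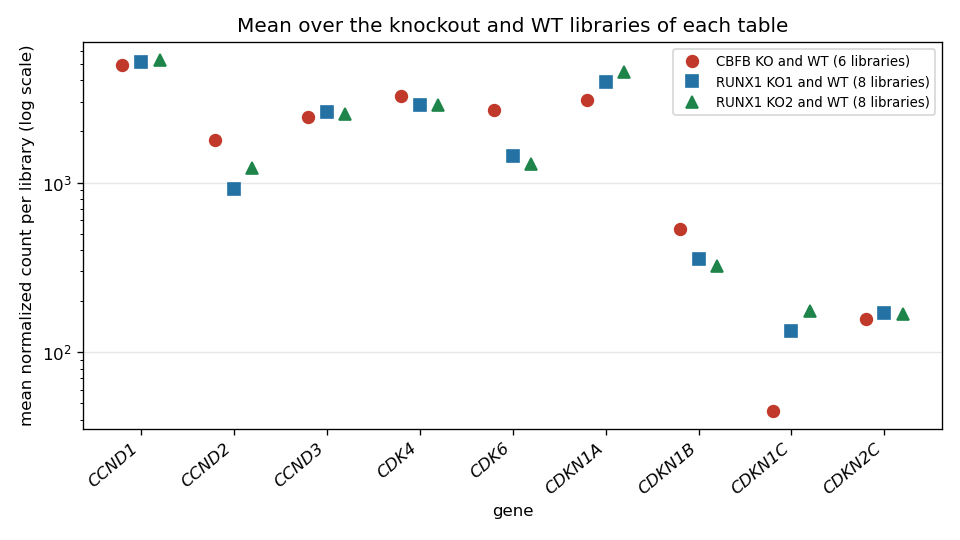
Mean normalized count per library (log scale) of each gene in the 3 tables, where each point is the authors' mean over knockout and WT libraries together and has no error bar. Counts are not corrected for length, so heights do not compare different genes. Each table keeps its own normalization, and the factor of 1.0600 between the RUNX1 tables is not applied here. Small differences in a gene's height between the tables therefore do not give a direction. The means of CCND1 lie between 4906 and 5278, and those of CDKN1C between 44.9 and 176.

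Among the kinases, CDK4 had means of 3258, 2874 and 2869 normalized counts in the CBFB, KO1 and KO2 tables. CDK6, which can replace CDK4 as a D cyclin partner, had 2659, 1431 and 1286. By level per kilobase of longest transcript, CDK4 lay at percentile 95.6, 95.2 and 95.7 of all genes, while CDK6 lay at 71.0, 62.4 and 62.8.

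Among the inhibitors, CDKN1A encodes p21, a target of p53 and a general brake on cyclin-CDK complexes, and its means were 3064, 3903 and 4471 normalized counts. CDKN1B, which encodes p27, had 529, 356 and 321. CDKN1C encodes p57 and is an imprinted gene expressed mainly from the maternal copy. Its mean was 44.9 in the CBFB table, a sum of 270 normalized reads over 6 libraries, against 134 and 176 in the RUNX1 tables. CDKN2C, which encodes the INK4 protein p18, had 156, 170 and 167. By level per kilobase, CDKN1A was at percentile 94.7, 96.2 and 97.1 of all genes and CDKN1B at 68.0, 64.0 and 64.3. CDKN1C was at percentile 36.8 in the CBFB table and above the median of all genes in the RUNX1 tables, at 52.3 and 59.2. CDKN2C lay close to the median, at 45.6, 49.9 and 51.5.

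Because a table mean covers equal numbers of knockout and WT libraries, neither group can have a mean above 2 times the table mean. For CDKN1C this limit was 89.9 normalized counts in the CBFB table, so both CBFB KO and its WT lay at or below that level, whatever the split between them. For CCND2 the limits in the CBFB, KO1 and KO2 tables were 3556, 1821 and 2425. CDKN2C could not exceed 311 in any group of the CBFB table.

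Levels of different genes are compared per length, as the gene's normalized counts with the table scaled to a sum of 1000000, divided by the length of its longest annotated transcript in kilobases (GENCODE 29). Each sum covers the genes listed in that table, and the listed genes differ between the tables. These levels therefore order genes within a table and do not measure a change between tables. The order of the genes on this scale depends on the length used. With the longest transcript CDK4, with a transcript of 2076 bases, was the highest of the 9 genes in the CBFB table at 77.6 counts per kilobase. CDKN1A followed at 66.9. In the RUNX1 tables CDKN1A came first, at 95.4 and 120, and CDK4 second, at 76.7 and 83.9. CCND1 and then CCND3 followed in each table, with 56.3 against 50.4 (CBFB), 65.8 against 60.0 (KO1) and 74.4 against 64.4 (KO2). CCND2 came after them at 13.6, 7.78 and 11.4. CDK6, whose longest transcript has 11612 bases, had 11.3, 6.83 and 6.72, beside CDKN1B at 9.85, 7.41 and 7.33. The 2 lowest genes were CDKN2C at 2.65, 3.24 and 3.49 and CDKN1C at 1.15, 3.84 and 5.51. With coding length CDKN1A came first in each table (308, 439 and 552), then CCND1 (274, 320 and 362) and then CDK4 (177, 175 and 192). With the median transcript length CCND1 came first in each table (433, 506 and 572), CDK4 had 209, 206 and 225, and CDKN1A had 105, 149 and 188. CDK6 exceeded CDKN1B by 3.16, 2.53 and 2.52 times with coding length and by 4.76, 3.81 and 3.79 times with median length. CDKN1C and CDKN2C were the 2 lowest genes in each table with each of the 3 lengths. With no value per library used, it is not known which neighbors in this order differ beyond their spread.

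**Figure D2:**
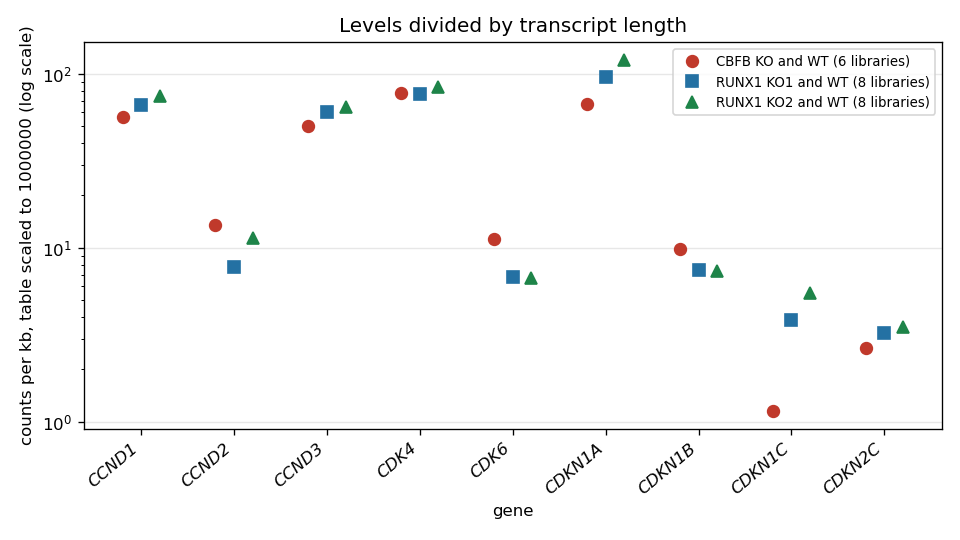
Level in counts per kilobase of longest transcript, with each table scaled to 1000000 counts (log scale), for each gene in the 3 tables; points are the authors' means over all libraries of a table. With this length CDK4 and CDKN1A take the first 2 places and CCND2, CDK6 and CDKN1B lie between 6.72 and 13.6, but with the median transcript length CCND1 comes first in each table, and with coding or median length CDK6 lies at least 2.52 times above CDKN1B.

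Within the D cyclin family, CCND1 made up 46.8%, 49.3% and 49.5% of the summed level per kilobase in the CBFB, KO1 and KO2 tables. CCND3 made up 41.9%, 44.9% and 42.9%, and CCND2 11.3%, 5.82% and 7.57%. The length used matters here. With coding length, CCND1 rose to 53.4%, 59.1% and 58.1% and CCND3 fell to 26.8%, 30.2% and 28.3%, while CCND2 stayed the smallest with 19.8%, 10.7% and 13.6%. CDK4 exceeded CDK6 per kilobase by 6.85, 11.2 and 12.5 times with the longest transcript but by 1.32, 2.16 and 2.40 times with coding length. Within the CIP/KIP family, CDKN1A made up 85.9%, 89.4% and 90.3% of the summed level per kilobase of longest transcript, and 73.9%, 82.5% and 84.8% with the median length. The RefSeq annotation lists 1 pseudogene of CCND2, 2 of CCND3 and 1 of CDK4, so these levels could include or lose reads shared with them. Whether the counting used strand is not given in the sources used here, so reads of antisense genes such as CCND2-AS1 and CDK6-AS1 could not be told apart from those of their partners.

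The RUNX1 tables allow a comparison of the clones without the authors' own statistics. If both rest on the same 4 WT libraries, the difference of the table means, times 2, is the difference between the clones' mean levels. The sharing was checked on genes with 1 read in 1 library, whose means repeat at a value set by that library. In 4 pairs of such values, between 58 and 72 genes had the one value in the KO1 table and the other in the KO2 table, and no other pair held more than 9 genes. The same libraries had means 1.0544 to 1.0711 times higher in the KO1 table, with a geometric mean of 1.0600, and the KO2 table was multiplied by this factor. As WT adds equally to both table means, the fold between the table means is the smallest fold between the clones that the means allow. No value per library was used, so no test was run between the clones. The 4 libraries found only in the KO2 table had size factors of 0.562 and, for the others, 1.103 to 1.289, against 0.986 to 1.043 for those found only in the KO1 table.

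CCND2 and CDKN1C stood out between the clones. The CCND2 mean was 910 in the KO1 table and 1286 in the rescaled KO2 table, so the mean of RUNX1 KO2 exceeded that of KO1 by 750.5 normalized counts. Over the 4 estimates of the scale this difference ran from 736.9 to 777.2, and its standard error from counting alone was at most about 33.8. KO2 was thus at least 1.41-fold higher than KO1 by these means (log2 ratio of table means 0.50). CDKN1C had 134 in the KO1 table and 186 in the rescaled KO2 table, a difference between clones of 104.6 (102.6 to 108.4 over the scales, counting error at most about 12.9). Its fold between clones was at least 1.39 (log2 ratio 0.47). Both genes had higher means in KO2, and the difference was many times the counting error, which leaves out the spread between replicates.

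**Figure D3:**
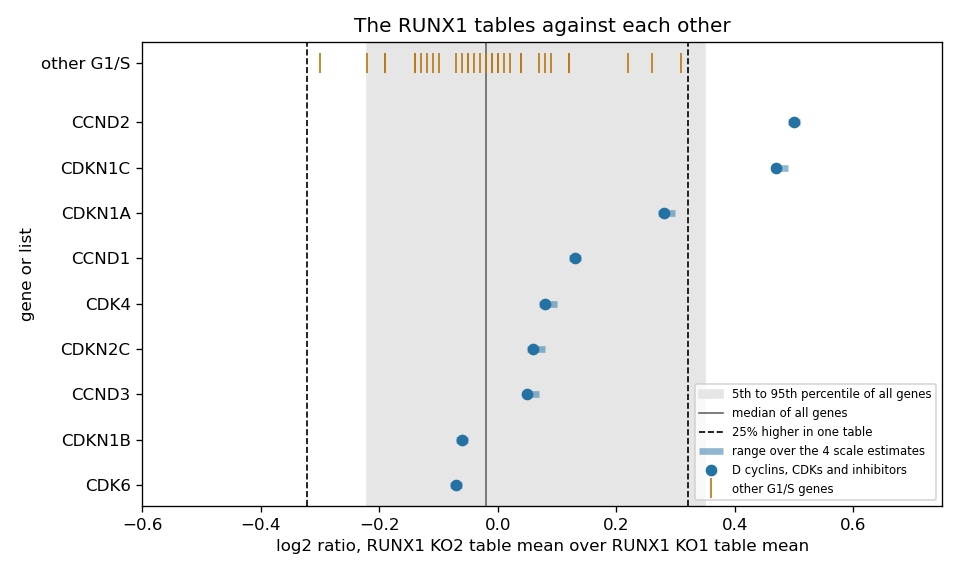
Log2 ratio of the RUNX1 KO2 table mean to the RUNX1 KO1 table mean for each gene (points, with a bar over the 4 scale estimates) and for the other G1/S genes (ticks); the grey band is the 5th to 95th percentile of all 13123 genes and the dashed lines mark a mean 25% higher in one table than in the other. CCND2 at 0.50 and CDKN1C at 0.47 lie to the right of the band, and the other 7 genes lie inside it.

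Counting genes whose mean in one table was at least 25% above that in the other, 2 of the 9 genes were higher in the KO2 table and 0 were lower. Of all 13123 genes at a mean of 10 or more in each RUNX1 table, 6.11% were higher in the KO2 table by that fold and 1.44% were lower. Of the genes past the fold, 80.9% were higher in KO2, against 59.4% with a factor of 1.021 from summed means and 41.8% with no scaling. That factor is not the ratio of the full table sums given above, which was not tried as a scale. CCND2 and CDKN1C lay at percentile 98.8 and 98.6 of the log2 ratios of all genes. The median log2 ratio was 0.08 over the 9 genes and -0.02 over all genes, whose 5th and 95th percentiles were -0.22 and 0.35.

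CDKN1A came next, short of the 25% line. Its means of 3903 and, rescaled, 4740 give a difference between clones of 1674.1 normalized counts (1623.8 to 1772.6 over the scales) and a fold of at least 1.21, at percentile 91.7. CCND1 was higher in KO2 by 952.1 normalized counts (892.7 to 1068.4), a fold of at least 1.09. CDK4, CCND3 and CDKN2C differed by 334.3, 200.7 and 14.9 normalized counts, with ratios of table means of 1.06, 1.04 and 1.04, and their direction turned when the tables were not rescaled. CDK6 and CDKN1B had lower means in KO2, by log2 ratios of -0.07 and -0.06. For CDK6 the difference KO2 minus KO1 was -136.6 normalized counts (-151.1 to -108.3 over the scales), and for CDKN1B it was -30.8. The standard error from counting alone was at most about 38.0 for CDK6, 19.0 for CDKN1B and 13.4 for CDKN2C. The differences of CDKN1B and CDKN2C were thus not far above it.

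The same arithmetic bounds the group means. On the KO1 table's scale, the mean of CCND2 in RUNX1 KO2 lay between 751 and 2571 normalized counts, while neither KO1 nor WT could exceed 1821. CDKN1C in KO2 lay between 105 and 373, with KO1 and WT at or below 268. CDKN1A in KO2 lay between 1674 and 9479, with KO1 and WT at or below 7805. The ranges of KO1 and KO2 overlapped for each of the 9 genes, which follows by arithmetic from table means this close together. The means fix the difference between the clones but not their levels.

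**Figure D4:**
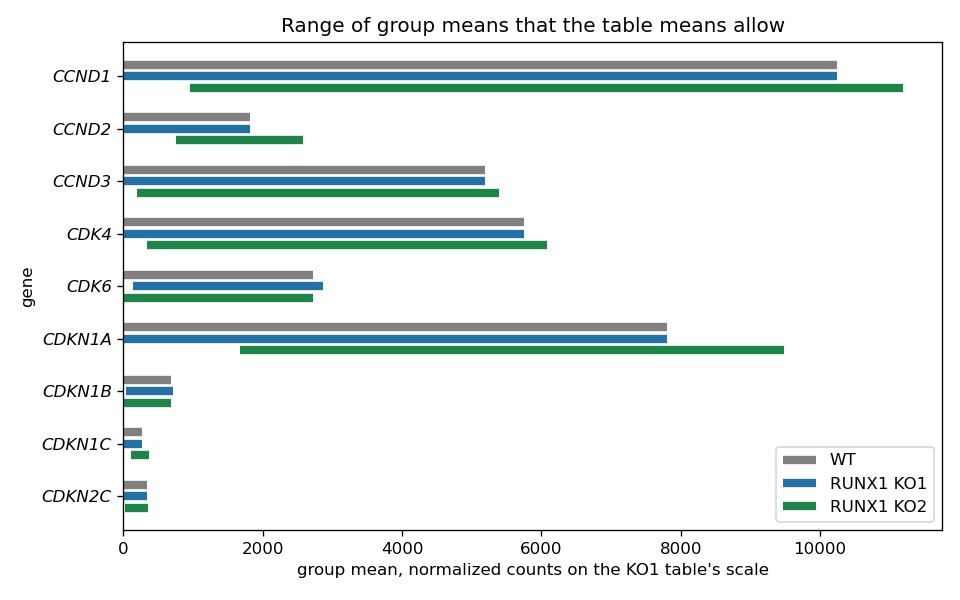
Ranges of the mean level of WT, RUNX1 KO1 and RUNX1 KO2 (normalized counts on the KO1 table's scale) that the table means allow for each gene; bars are arithmetic limits, not errors. The KO2 bars of CCND2, CDKN1A and CDKN1C start at 751, 1674 and 105, where the KO1 and WT bars start at 0. Those of CCND1, CCND3, CDK4 and CDKN2C also start above 0, at 952, 201, 334 and 14.9, as for any gene with a higher rescaled KO2 mean. For CDK6 and CDKN1B it is the KO1 bar that starts above 0, at 137 and 30.8.

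Other genes of the G1/S step were taken as a list of 35, of which CDKN2A and CCND1BP1 were not analysed here. The other 33 had a median level of 11.2, 11.9 and 11.9 counts per kilobase in the CBFB, KO1 and KO2 tables. CKS1B, a cofactor of the SKP2 ubiquitin ligase that degrades p27, MYC, and TFDP1, the dimer partner of E2F factors, were the 3 highest in each table with each of the 3 lengths, with 183, 158 and 107 per kilobase of longest transcript in the KO1 table. By the same length, the lowest in the KO1 table were E2F8 at 2.37, TFDP2 at 2.71 and E2F5 at 2.74. Between the RUNX1 tables, 0 of the 33 were past the 25% line in either direction, against the 6.11% and 1.44% of all genes. This count depends on the scale. E2F7, an E2F repressor, passed the line as lower in KO2 with the factor of 1.021 from summed means or with no scaling. The INK4 gene CDKN2D passed it as higher with the median ratio. The higher mean was in KO2 for 13 of the 33 (39.4%), near the 46.0% of all genes. Their median log2 ratio was -0.02, equal to that of all genes.

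Promoters were searched for the RUNX core motif TGTGGT on both strands, in RefSeq windows from 250 bases before to 50 after the annotated start (GRCh38.p14). Windows were available for 7 of the 10 genes, 12 windows in all, and 0 held the motif, against 13.1% of 35116 windows of all genes. CCND1, CCND2 and CDKN1C had no window in the table used, so the 7 include CDKN2B, whose level was not analysed. The absence of a match says only that these letters do not occur there.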

How the data were processed

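RNA-seq of 18 MCF10A samples was analysed from 3 deposited tables. Per the labels, the submitters' processing notes name Trimmomatic, STAR and DESeq2 with the build hg19, and versions, counter and annotation are not given in the sources used here. Labels name a TruSeq mRNA kit, the methods rRNA removal. The values used are the authors' deposited means of counts divided by size factors, a signal pooled over knockout and WT. In these tables, columns with values of single samples numbered 0. The labels also name a matrix for each experiment, which was not analysed here. Their log2 fold changes, standard errors, test scores and p-values are the authors' own comparison and were not used. Only counting error was thus bounded.

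Levels were divided by table sums and by GENCODE 29 transcript lengths. The RUNX1 tables were set on a common scale through their shared libraries, and genes with means of at least 10 and 1 mean at least 25% above the other were counted, with no test. The scaling and the clone differences were run on simulated tables built from libraries of known size and overlap. These had the same scale for all shared libraries, where the data gave 1.0544 to 1.0711. The simulation thus checks the arithmetic and not the error from that spread. As files and reference differ in build, no coordinates are given. The genes and lists were chosen with earlier results of these data known. Named were all 10 genes, CBFB, RUNX1 and, of the other G1/S genes, any past the fold and the 3 highest and lowest per kilobase. Python 3.11.15, pandas 2.3.3, numpy 2.4.6 and matplotlib 3.10.9 were used.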

Additional observations from a re-analysis of the deposited data

How the results depend on the processing

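Leaving out a replicate was not run, since each value used is a mean over all libraries of a table. No paired analysis was possible because the 3 tables used carry no value per replicate, and the matrices that the labels name were not analysed here. Per kilobase, the ratio of CDK4 to CDK6 was 6.85, 11.2 and 12.5 in the CBFB, KO1 and KO2 tables, but 1.32, 2.16 and 2.40 with coding length and 1.23, 2.02 and 2.25 with the median transcript length. CDK4 stayed above CDK6 with each of the 3 lengths. The counts of genes past the fold between the RUNX1 tables, 802 higher and 189 lower in KO2, were 452 and 51 at a mean of at least 100, 2114 and 1222 with no minimum, 2783 and 2306 at a fold of 1.1, and 79 and 31 at 1.5. At 1.5 neither CCND2 (1.41) nor CDKN1C (1.39) passed, and at 1.1 CDKN1A (1.21) passed as well. The split depends on the scale, with 80.9% higher in KO2 by the shared libraries and 85.7% by the median ratio (923 higher and 154 lower). It was 59.4% by summed means (504 higher and 344 lower) and 41.8% with no scaling (365 and 508). Using no scaling leaves the shared WT libraries at unequal levels by construction. With no scaling, CCND3, CDK4 and CDKN2C turned to log2 ratios of -0.03, -0.0026 and -0.02. With the other scalings, all 9 genes kept their direction and their side of the 25% line. By summed means, however, the log2 ratios of CCND3, CDKN2C and CDK4 were only 0.00024, 0.01 and 0.03, so their sign carries little weight. Of the 33 other G1/S genes, 0 were past it with the shared libraries, while E2F7 was lower in KO2 by summed means and with no scaling (log2 ratios -0.36 and -0.39) and CDKN2D higher by the median ratio (0.33). CCND2 and CDKN1C stayed past it under each scaling tried, at log2 ratios of at least 0.41 and 0.39.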

Other observations

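CDKN2B lies next to CDKN2A in the RefSeq gene order, and the level of neither was analysed here. The means of their neighbors were read after the values of the 9 genes had been seen. MTAP, which encodes an enzyme of methionine salvage, had a mean of 4.95, 4.93 and 3.47 normalized counts in the CBFB, KO1 and KO2 tables. CDKN2B-AS1, the antisense RNA also called ANRIL, had 5.396, 1.096 and 1.31. On the other side DMRTA1 had 20.8, 20.7 and 20.8, and ELAVL2 had 345, 213 and 174.

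KCNQ1OT1, an imprinted RNA of the domain that holds CDKN1C, was also chosen after its values were seen. Its mean was 608 normalized counts in the CBFB table and 192 and 163 in the KO1 and KO2 tables, while CDKN1C had 44.9, 134 and 176. The experiments had separate WT libraries and normalization, so experiment and genotype cannot be told apart in these levels. Between the clones, KCNQ1OT1 had a log2 ratio of -0.15 of the rescaled KO2 to the KO1 table mean, at percentile 13.9 of all genes, and CDKN1C one of 0.47.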
